A study of Mus musculus with 6 samples.

Results

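The transcripts described here encode 10 cytokines that helper T cells secrete or carry on their surface: Il21, Il2, Il4, Ifng, Il10, Tnf, Lta, Ltb, Lif and Il3. Every probe set that the array annotation assigns to exactly 1 of these symbols was taken, which gave 12 of the 45037 probe sets outside the array's controls and 10 of 18193 genes. Il21 and Lif were each read by a pair of probe sets and the other 8 genes by 1. The cells were T cells of 5C.C7 mice, whose transgenic receptor recognises a peptide of moth cytochrome c (MCC). All donors, of B10.A background, lacked RAG2 (RAG2-/-), so their T cells carry the transgenic receptor, and all carried the CD45.1 allele. One group was wild type for CTLA-4 and the other was CTLA-4 KO (CTLA-4-/-). Cells of either genotype were moved into B10.A hosts, immunization with MCC peptide and LPS followed, and the T cells were recovered by sorting 4 days later. Each genotype has 3 Affymetrix arrays, called biological replicates 1 to 3, and whether an array stands for 1 animal or a pool is not stated. The ages of the animals and the sort gate are not given in the sources used here.

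Cytokines are short-lived signals whose genes are switched on when the T cell receptor is engaged and are shut off again within a short time. The receptor acts through NFAT, AP-1 and NF-kB, and lineage factors decide which cytokine genes respond, so that Th1 cells make interferon-gamma, Th2 cells interleukin-4 and follicular helper cells interleukin-21. CTLA-4 binds CD80 and CD86 and so competes with CD28, the costimulatory receptor whose signal adds to interleukin-2 production. The comparison addresses how these transcripts differ between transferred cells with and without CTLA-4 on day 4. In sorted bulk samples, a difference in the number of producing cells and a difference in RNA per cell cannot be told apart.

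The arrays showed 1 cytokine transcript that was higher in CTLA-4 KO cells under the plain comparison of 3 against 3, and a second that was lower once arrays of the same replicate number were compared with each other. Il21 was 1.74-fold higher, and Il2, its neighbour on chromosome 3, stood at 63.2% of the wild-type level. Il4 had 1.74 times the wild-type mean with a wider spread and did not pass, and Ifng and Lta had nearly equal means. Of the 12 probe sets, 9 were bright enough to be tested; the probe sets of Il10 and Il3 and the dimmer one of Lif were not. Values were compared as log2(intensity + 16) with limma over 27022 probe sets, where 1.25% passed an adjusted p of 0.05 in either direction (0.785% higher and 0.47% lower in CTLA-4 KO). Of the 9 cytokine probe sets, 1 passed, as higher. With replicate number as a block 3 passed, 2 higher and 1 lower, against 8.66% of all probe sets in that fit (3.86% higher and 4.8% lower). The 3 were both Il21 probe sets and Il2. By gene, with the brightest probe set of each, 1 of 8 was higher and 1 lower, against 8.96% of genes. Without the filter on dim probe sets the blocked fit called 1 cytokine probe set, the brighter one of Il21. For 5 of the 9 the genotypes were fully separated, against 21% of all tested probe sets. By gene this was 4 of 8, against 22.8% of genes. The median log2 difference over the 9 was 0.42, and over all tested probe sets it was -0.04. By gene the medians were 0.36 over the 8 and 0.00 over all genes tested.

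**Figure D1:**
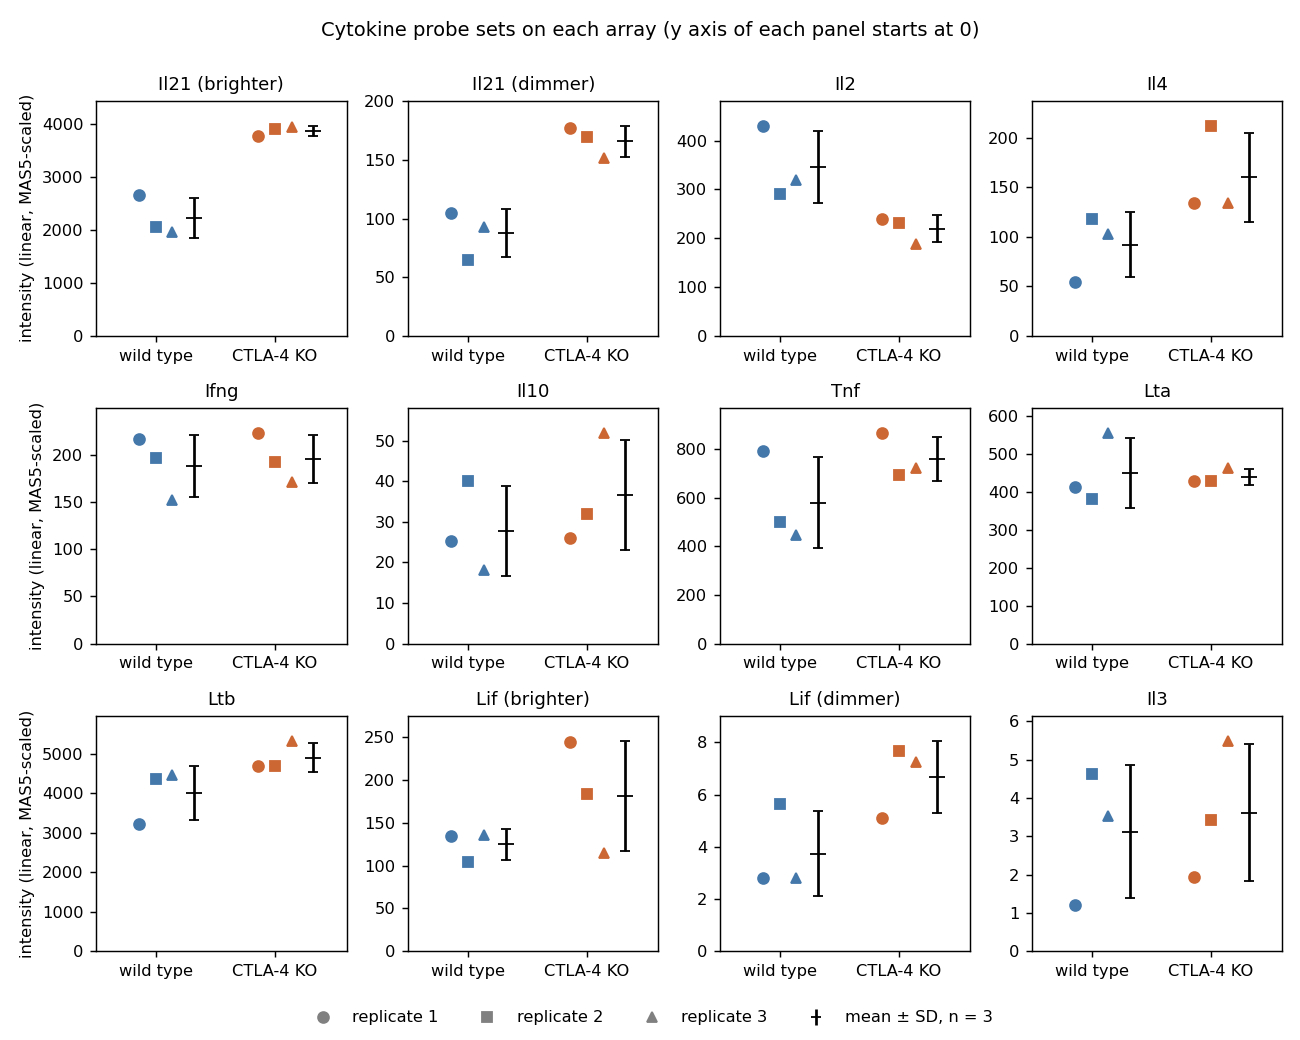
Linear intensity of each of the 12 cytokine probe sets on the 3 wild type and 3 CTLA-4 KO arrays, 1 panel per probe set; marker shapes give the replicate number and black bars the mean ± SD. The Il21 panels separate upward and the Il2 panel downward, whereas the Ifng and Lta panels overlap.

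Il21 encodes interleukin-21, which signals through a receptor with the common gamma chain and STAT3 and helps B cells in germinal centres. Its brighter probe set (1450334_at) read 2657, 2053 and 1959 on wild type arrays 1, 2 and 3, and 3760, 3909 and 3933 on CTLA-4 KO arrays 1, 2 and 3. Every CTLA-4 KO array lay above every wild type array, and the CTLA-4 KO arrays lay close together while wild type array 1 was the highest of its group. The means were 2223 ± 378 and 3868 ± 94.2 (SD, n = 3 arrays each), a log2 difference of 0.81 ± 0.12 (SE, 95% interval 0.53 to 1.08, limma adjusted p = 0.0154). A two-sided exact permutation of the arrays gave p = 0.1, the lowest value that 20 arrangements allow. The dimmer probe set (1447288_at) read 105, 65.0 and 93.1 for wild type against 177, 169 and 151 for CTLA-4 KO. It showed the same order of the groups, with no overlap, and a log2 difference of 0.83 ± 0.22 of much the same size. Its limma adjusted p was 0.1 without a block and 0.029 with replicate number as a block, a call lost without the pair numbered 2 (adjusted p = 0.129) and with no filter on dim probe sets (0.126). The call of the brighter probe set was lost when array 2 of wild type (limma adjusted p = 0.0548), array 3 of wild type (0.0553) or array 2 of CTLA-4 KO (0.0911) was left out, where the log2 difference was 0.76, 0.72 and 0.80. It was also lost without the intensity trend (adjusted p = 0.132) and when the 5' to 3' signal ratio of Actb, a sign of RNA integrity, entered the fit (log2 difference 0.92, adjusted p = 0.132). On arrays 1 to 3 of wild type it stood at 0.418, 0.41 and 0.584, and on those of CTLA-4 KO at 0.567, 0.691 and 0.544. Its part in the result was not tested further.

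Il2 encodes interleukin-2, a growth factor of activated T cells that signals through STAT5. Its probe set (1449990_at) read 430, 291 and 319 on wild type arrays 1, 2 and 3 and 239, 231 and 188 on CTLA-4 KO arrays 1, 2 and 3. The highest CTLA-4 KO value was under the lowest wild type value, and wild type array 1 was the highest of the 6. The means were 347 ± 73.7 and 219 ± 27.7 (SD, n = 3 arrays each), a log2 difference of -0.61 ± 0.19 (95% interval -1.03 to -0.19). In the limma fit without a block the adjusted p was 0.151, and with replicate number as a block it was 0.0319. That blocked call was lost with no filter on dim probe sets (adjusted p = 0.0996), and without the pair numbered 1 (adjusted p = 0.128, log2 difference -0.52) or the pair numbered 3 (0.0908, log2 difference -0.56), and held without the pair numbered 2 (0.0304). Il2 and Il21 are next to each other among the protein-coding genes of chromosome 3 in the RefSeq annotation of GRCm38.p6. The log2 value of Il21 minus that of Il2, a comparison chosen after both were seen, was 2.58, 2.75 and 2.56 on wild type arrays and 3.89, 3.99 and 4.28 on CTLA-4 KO arrays. The size of this gap on 1 array also reflects how the probes hybridise, so only its change can be read. The change was 1.42, a description only, since Il21 and Il2 were each fully separated in opposite directions.

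The 250 bases before the start of Il21 and of Il2 are printed because these neighbouring genes were the ones that passed a test on 6 arrays, in opposite directions. They come from RefSeq (GRCm38.p6), which held a promoter entry for 9 of the 10 genes, and are written 5' to 3' along the gene. The Il21 stretch lies at chr3:37232637-37232886 and the Il2 stretch at chr3:37125955-37126204, both on the minus strand. Capitals mark the core that NFAT recognises, GGAAA on either strand.
Il21: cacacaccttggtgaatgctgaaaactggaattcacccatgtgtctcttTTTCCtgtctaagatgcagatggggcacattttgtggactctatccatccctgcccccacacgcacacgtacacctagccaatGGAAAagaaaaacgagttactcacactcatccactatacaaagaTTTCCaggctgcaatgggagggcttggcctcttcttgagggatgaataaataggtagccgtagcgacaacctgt
Il2: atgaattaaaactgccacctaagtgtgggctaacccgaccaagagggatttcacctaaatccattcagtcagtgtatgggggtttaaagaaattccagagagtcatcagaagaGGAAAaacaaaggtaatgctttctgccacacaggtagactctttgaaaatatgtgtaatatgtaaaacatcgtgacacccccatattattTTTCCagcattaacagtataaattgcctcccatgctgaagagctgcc
The Il21 stretch holds 3 such cores, which begin 201, 118 and 74 bases before the start, and the Il2 stretch holds 2, at 137 and 47 bases. Cores of this length are common: 55.6% of 32851 promoter windows of this length hold at least 1, 21.4% hold 2 or more and 6.39% hold 3 or more. Neither stretch holds the AP-1 letters TGANTCA, which 6.75% of windows hold, nor the longer composite element of IRF and AP-1, held by 0.0974%. Within these windows the genes are alike in that both hold NFAT cores and neither holds these AP-1 letters. These matches describe the letters only.

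Il4 encodes interleukin-4, made by Th2 and follicular helper cells, which directs antibody class switching in B cells. Its probe set (1449864_at) read 55.0, 118 and 103 for wild type against 135, 212 and 134 for CTLA-4 KO. The groups did not overlap, with wild type array 1 the lowest and CTLA-4 KO array 2 the highest. The log2 difference was 0.73 ± 0.28 (95% interval 0.10 to 1.36), nearly the size seen for Il21, but with limma adjusted p = 0.248, and 0.0567 with replicate number as a block. It passed in the blocked fit without the pair numbered 3 (adjusted p = 0.0345, log2 difference 0.93). With fewer arrays, that fit leans more on variance borrowed from other probe sets. Without array 1 of wild type, in the fit without a block, the log2 difference was 0.45 (adjusted p = 0.491). With the Actb ratio in the fit the log2 difference was 0.40 (adjusted p = 0.765).

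Ifng encodes interferon-gamma, the Th1 cytokine that activates macrophages. Its probe set (1425947_at) read 216, 196 and 152 for wild type against 222, 192 and 171 for CTLA-4 KO. In both genotypes array 1 was the highest and array 3 the lowest, and the groups overlapped. The log2 difference was 0.06 ± 0.19 (limma adjusted p = 0.921), and the 95% interval of -0.37 to 0.49 leaves room for changes in either direction. Il10 encodes interleukin-10, which restrains inflammatory responses. Its probe set (1450330_at) read 25.2, 39.98 and 18.0 for wild type against 26.1, 31.9 and 51.8 for CTLA-4 KO. These values overlapped around the dimness floor, an intensity of 35.4, and the probe set was not tested. Il10 lies on chromosome 1, as Ctla4 does.

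Tnf, Lta and Ltb encode the related ligands tumour necrosis factor, lymphotoxin-alpha and lymphotoxin-beta, and they follow each other on chromosome 17. Tumour necrosis factor and lymphotoxin-alpha bind the TNF receptors, and lymphotoxin-beta forms a membrane complex with lymphotoxin-alpha that binds the lymphotoxin-beta receptor and shapes lymphoid tissue. Tnf (1419607_at) read 794, 499.9 and 448 for wild type against 865, 692 and 724 for CTLA-4 KO. Wild type array 1 reached into the range of the CTLA-4 KO arrays, so the groups overlapped, while the CTLA-4 KO array was the higher one of each replicate number. The log2 difference was 0.42 ± 0.20 (95% interval -0.03 to 0.86, limma adjusted p = 0.356, and 0.0647 with replicate number as a block). Lta (1420353_at) read 414, 382 and 554 for wild type against 427, 427 and 463 for CTLA-4 KO. The CTLA-4 KO values lay within the wild type range, with a log2 difference of -0.02 ± 0.16 (95% interval -0.38 to 0.35), whose sign turned under median centring and quantile normalization. Ltb (1419135_at) read 3218, 4360 and 4454 for wild type against 4685, 4687 and 5316 for CTLA-4 KO. The groups did not overlap, though by a small gap, and wild type array 1 was far below the other arrays. The log2 difference was 0.30 ± 0.13 (95% interval 0.01 to 0.59, limma adjusted p = 0.305, and 0.0798 with replicate number as a block). None of these 3 neighbours passed in either fit on 6 arrays. In the blocked fit Tnf passed without the pair numbered 1 (adjusted p = 0.00997, log2 difference 0.56) and Ltb without the pair numbered 2 (0.0336, log2 difference 0.40). These smaller fits lean more on variance borrowed from other probe sets. In fits without a block the log2 difference of Tnf was 0.66 without array 1 and 0.26 without array 3 of wild type, and that of Ltb was 0.15 without array 1 of wild type. With the Actb ratio fitted too, that of Tnf was 0.70 (adjusted p = 0.429). Lta did not pass in those fits, and whether their differences are unequal was not tested.

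Lif encodes leukemia inhibitory factor, a cytokine whose receptor includes gp130. Its brighter probe set (1421207_at) read 135, 104 and 136 for wild type against 244, 183 and 115 for CTLA-4 KO. CTLA-4 KO arrays 1 and 2 lay above all wild type arrays and CTLA-4 KO array 3 lay among them. The log2 difference was 0.44 ± 0.26 (95% interval -0.14 to 1.01, limma adjusted p = 0.462). It was 0.21 without array 1 and 0.70 without array 3 of CTLA-4 KO, and 0.25 with the Actb ratio fitted too. The dimmer Lif probe set (1450160_at) stayed at or under 7.66 on every array, under the dimness floor. Il3 encodes interleukin-3, a growth factor of mast cells, basophils and blood progenitors. Its probe set (1450566_at) ranged from 1.22 to 4.63 for wild type and from 1.94 to 5.48 for CTLA-4 KO, under the floor on every array.

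**Figure D2:**
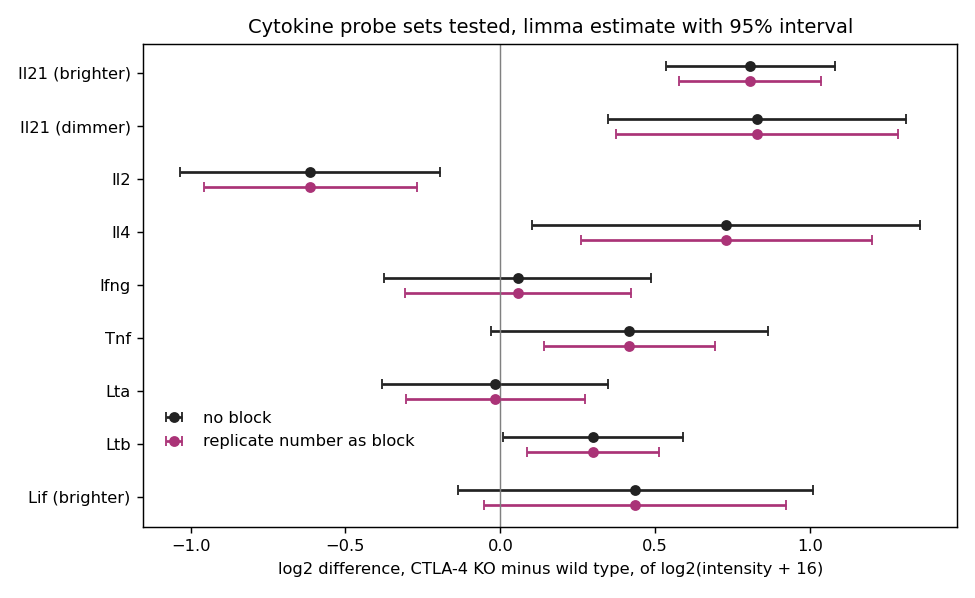
Difference of CTLA-4 KO minus wild type in log2(intensity + 16) for the 9 cytokine probe sets tested, with its 95% interval from limma without a block (black) and with replicate number as a block (purple). The intervals of both Il21 probe sets, Il4 and Ltb lie above 0 and that of Il2 below 0 in both fits, before adjustment over all probe sets.

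Compared within replicate numbers, the brighter Il21 probe set was higher in CTLA-4 KO by 0.50, 0.92 and 0.9997 on the log2 scale for numbers 1, 2 and 3, and the dimmer one by 0.68, 1.19 and 0.62. Il2 differed by -0.80, -0.32 and -0.72. Il21 was thus higher and Il2 lower in 3 of 3 pairs, and the pair with the smallest difference was number 1 for the brighter Il21 probe set and number 2 for Il2. Il4 differed by 1.09, 0.77 and 0.33, Tnf by 0.12, 0.46 and 0.67, and Ltb by 0.54, 0.10 and 0.25, all positive. Ifng, Lta and Lif each had 1 pair of opposite sign. In all, 6 of the 9 probe sets had the same sign in 3 of 3 pairs, against 44.5% of all tested probe sets. For 5 of these, all but Tnf, the genotypes were fully separated, so any matching of arrays would give that sign in 3 of 3.

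**Figure D3:**
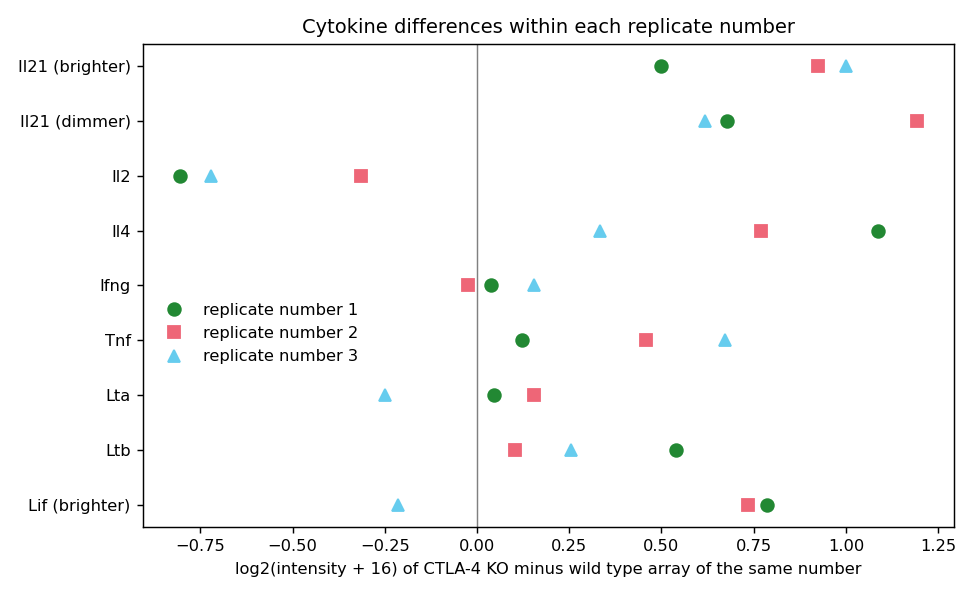
Difference in log2(intensity + 16) between the CTLA-4 KO and the wild type array of the same replicate number, for the 9 cytokine probe sets tested, with 1 marker shape per number. Both Il21 probe sets, Il4, Tnf and Ltb lie right of 0 in 3 of 3 pairs and Il2 lies left of 0 in 3 of 3. Of these, all but Tnf had fully separated genotypes, for which any matching of arrays gives the same side.

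Related genes were followed in lists, with the brightest tested probe set for each gene; over 11990 genes 1.69% passed without a block, 8.96% passed with it, 16.6% had an unadjusted p under 0.05 without it, and the median log2 difference was 0.00. Across the lists 13 genes passed with the block alone, and with no filter on dim probe sets 1 of them, Bcl2, still passed. Of 15 other helper cytokines listed, 6 were tested and none passed in limma with or without a block, nor at an unadjusted p of 0.05, where the count was 0. Il5, Il13, Il9, Il6 and Csf2 were too dim to be tested, and Il17a, the cytokine that names the Th17 lineage, read 41.9 ± 21.6 for wild type against 64.7 ± 40.6 for CTLA-4 KO. Of 9 tested ligands of the TNF superfamily, none passed without a block (1 at an unadjusted p of 0.05), and 2 were lower with replicate number as a block. These were Tnfsf10, the death ligand TRAIL, with 739 ± 123 for wild type against 507 ± 48.8 for CTLA-4 KO (blocked adjusted p = 0.0401), and Tnfsf8, the CD30 ligand, with 1668 ± 536 and 1249 ± 351 (0.0206). In fits without a block the log2 difference of Tnfsf8, -0.40, was -0.16 without array 1 of wild type, -0.26 without array 3 of CTLA-4 KO, -0.62 without array 1 of CTLA-4 KO, and -0.14 with the Actb ratio fitted too. None of 4 tested T cell chemokines passed in either fit, and 0 had an unadjusted p under 0.05.

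Receptors of the 10 cytokines had a median log2 difference of -0.13 over 13 tested genes. None passed without a block (3 at an unadjusted p of 0.05), and with replicate number as a block 1 was higher and 1 lower. Tnfrsf1b, TNF receptor 2, had 1812 ± 222 for wild type against 2405 ± 326 for CTLA-4 KO (blocked adjusted p = 0.0173). Il6st, which encodes gp130, the signalling chain shared by the receptors for Lif and interleukin-6, had 5156 ± 268 and 3972 ± 500 (0.0364), and its dimmest tested probe set had a difference of opposite sign, 0.58. Il21r, the receptor of interleukin-21, had 482 ± 19.1 and 513 ± 67.8 and did not pass (adjusted p = 0.832). Il2rb, the shared beta chain of the interleukin-2 and interleukin-15 receptors, had 1055 ± 74.2 and 1271 ± 43.3 (0.287), with no overlap, while Il2ra was dim in both genotypes, at 60.8 ± 24.2 and 71.5 ± 26.1.

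Among regulators of cytokine genes, 3 of 31 tested genes rose and none fell, with a median of 0.15, and with replicate number as a block 7 were higher and 2 lower. Without a block, 10 of the 31 had an unadjusted p under 0.05. Fos, a subunit of AP-1, read 739, 576 and 574 for wild type against 1175, 1094 and 1082 for CTLA-4 KO (log2 difference 0.82 ± 0.14, limma adjusted p = 0.0215). Ikzf3, the Ikaros-family factor Aiolos, read 952, 1429 and 1608 against 2294, 2864 and 2657 (0.99 ± 0.18, adjusted p = 0.0297). Its other probe sets, both dim, had differences of 0.22 and -0.11. Batf, the AP-1 factor that pairs with IRF4 at genes such as Il21, read 1195, 1194 and 1502 against 1941, 2060 and 2099 (0.65 ± 0.12, adjusted p = 0.0347). In each of these genes the genotypes did not overlap, yet each call depended on which arrays were included. Of the 6 fits that left out 1 array, Fos kept its call in 1, the fit lacking array 1 of wild type, with adjusted p up to 0.111 in the others. Batf kept it in 1, the fit lacking array 3 of wild type (up to 0.166). Ikzf3 kept it in 3 and lost it when array 2 of wild type or array 2 or 3 of CTLA-4 KO was left out (up to 0.152). None of the 3 passed when the Actb ratio was fitted too, or without the intensity trend, and with no filter on dim probe sets Ikzf3 (0.0838) and Batf (0.0687) did not pass.

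The regulators that passed with the block alone included opposing lineage factors. Bcl6, the factor of follicular helper cells, had 2259 ± 186 and 3123 ± 146 (blocked adjusted p = 0.0112), and Prdm1, which encodes Blimp-1 and counteracts Bcl6, had 51.5 ± 6.24 and 112 ± 29.3 (0.0366). Tbx21, the Th1 factor T-bet, had 223 ± 70.5 and 340 ± 49.9 (0.0331), Nr4a1, induced by the T cell receptor, had 2411 ± 529 and 3366 ± 221 (0.0104), and Gata3, the Th2 factor, had 1642 ± 231 and 1247 ± 264 (0.0252). Maf, which encodes c-Maf, an activator of Il21 and Il4, had 9194 ± 355 and 11202 ± 1301 by its brightest probe set, with no overlap, and did not pass (adjusted p = 0.204, and 0.0669 with the block). Of its 4 other probe sets, 3 passed with the block, with log2 differences of 0.44, 0.53 and 0.62 (blocked adjusted p = 0.00963, 0.0188 and 0.00581). Fosl2, another AP-1 subunit, had 218 ± 58.0 and 131 ± 31.4 (0.0354). Of the 6 that passed with the block alone, Gata3 and Fosl2 were lower and the other 4 higher. Without a block, the log2 difference of Tbx21 was 0.62 on 6 arrays, 0.34 without array 1 of wild type and 0.40 with the Actb ratio fitted too. That of Gata3 was -0.40 on 6 arrays and -0.26 without array 3 of CTLA-4 KO, and that of Prdm1 was 0.90 and, with a pseudocount of 64, 0.60. Of 11 tested factors that control the decay of cytokine messages, none passed without a block (2 at an unadjusted p of 0.05), and with it 1 was higher. This was Zfp36, the protein tristetraprolin that binds AU-rich messages such as that of Tnf, with 1417 ± 88.2 and 1851 ± 110 (blocked adjusted p = 0.0253).

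Genes that respond to STAT5 and STAT3 had a median of 0.20 over 10 tested genes, of which 2 rose and none fell, and with replicate number as a block 3 were higher and 1 lower. Without a block, 4 of the 10 had an unadjusted p under 0.05. Pim1, a kinase gene induced by STAT signals, read 457, 582 and 447 for wild type against 997, 1090 and 1215 for CTLA-4 KO (log2 difference 1.13 ± 0.15, limma adjusted p = 0.00906). It passed in 6 of 6 fits that left out 1 array, and its adjusted p was 0.0922 when the Actb ratio was fitted too and 0.0787 without the intensity trend. Bcl3, a regulator of NF-kB, read 608, 673 and 558 against 1399, 1047 and 971 (0.86 ± 0.16, adjusted p = 0.0298), and its call was kept without CTLA-4 KO replicate 3 and lost without each of the other 5 arrays and with no filter on dim probe sets (0.0701). Socs3, which feeds back on gp130 and STAT3 signals, had 851 ± 348 and 1320 ± 213 by its brightest probe set (adjusted p = 0.231, and 0.0319 with the block), and another of its probe sets passed without a block (log2 difference 0.97, adjusted p = 0.0381). Both are of a kind that can cross-hybridise. Its dimmest probe set, not of that kind, passed in neither fit (log2 difference 0.41, adjusted p = 0.455, and 0.277 with the block). The log2 difference of the brightest one, 0.69, was 0.37 without array 1 of wild type and 0.41 with the Actb ratio fitted too. Bcl2, a survival gene, had 3020 ± 716 and 2029 ± 718 (0.238, and 0.00389 with the block). Its genotypes overlapped. Without a block its log2 difference, -0.60, ran from -0.87 to -0.42 when 1 array was left out. The rest of this list passed in neither fit. The log2 differences were 0.07 for Cish, 0.12 for Socs1, -0.35 for Socs2, 0.22 for Pim2, 0.49 for Dusp5 and 0.18 for Il2ra. Of 9 tested targets of interferon-gamma, none passed in limma with or without a block, 0 had an unadjusted p under 0.05, and the median was 0.01. Irf1 had 4089 ± 151 and 3644 ± 88.7, and Gbp2 had 5204 ± 403 and 4612 ± 472.

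**Figure D4:**
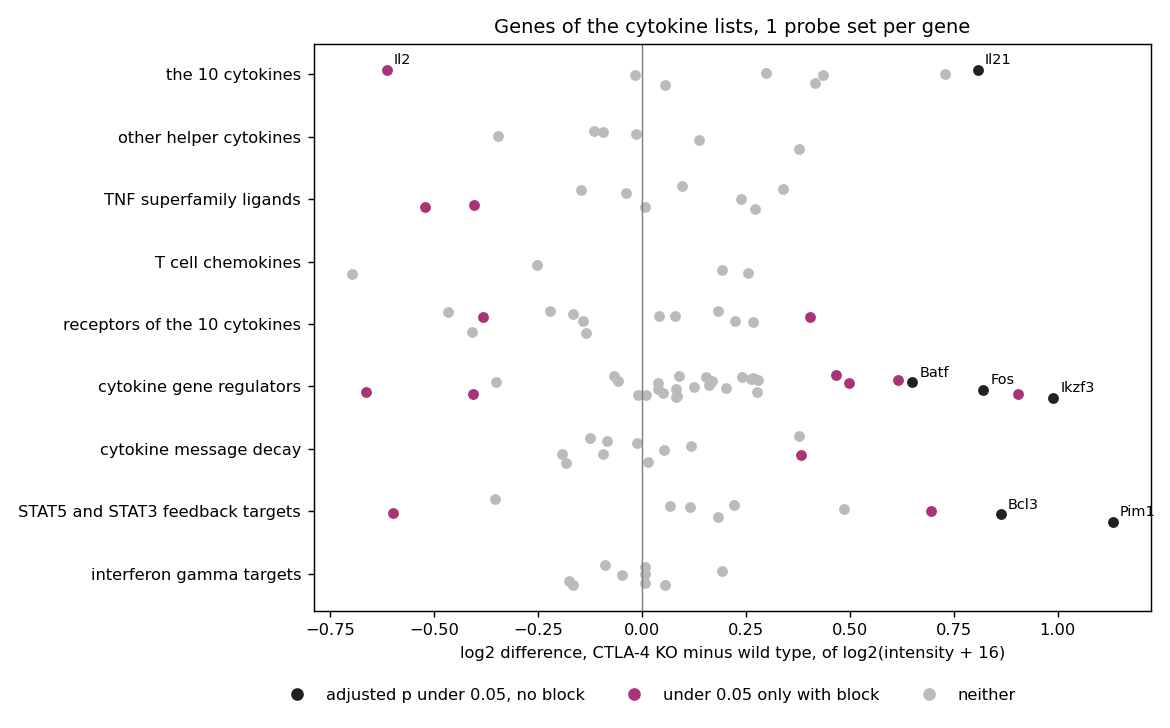
Log2 difference of CTLA-4 KO minus wild type for the tested genes of each list, 1 point per gene, jittered vertically; black points passed an adjusted p of 0.05 in limma without a block, purple points passed with the block alone and grey points passed in neither. Il21, Fos, Ikzf3, Batf, Pim1 and Bcl3 are the black points, all right of 0, and the interferon-gamma targets cluster near 0.

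The genes whose log2 values came closest to those of Il21 over the 6 arrays, each centred on its own mean, were Yars2, Fos and Arc. The root-mean-square differences were 0.059, 0.062 and 0.070. Yars2, a mitochondrial tyrosyl-tRNA synthetase, read 479, 356 and 343 for wild type against 645, 645 and 636 for CTLA-4 KO, by a probe set of the kind that can cross-hybridise. Arc, an activity-induced gene, read 142, 118 and 96.9 against 209, 238 and 233. They were chosen for this likeness, so the shared order of the arrays is a description.

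Across the series, Ctla4 itself fell in CTLA-4 KO, from 4587 to 5332 on the wild type arrays down to 784 to 812 (log2 difference -2.60 ± 0.10, limma adjusted p = 1.45e-06), as the labels say. It was read by 1 probe set, and where its probes lie in the gene was not determined. The summed intensity of 9 T cell markers ran from 69502 to 78615 for wild type and from 70024 to 70340 for CTLA-4 KO, and Cd3e, Cd3d and Cd4 were well above the dimness floor on every array. None of the 9 passed without a block, while 2, Cd3g and Cd28, were lower with it. Sums were 270 to 528 and 179 to 373 for 8 B cell markers, 482 to 517 and 439 to 634 for 10 myeloid markers, 242 to 356 and 194 to 243 for 6 dendritic cell markers, and 262 to 422 and 315 to 513 for 2 CD8 T cell markers. They were 76.3 to 264 and 74.2 to 196 for 4 plasma cell markers, 38.9 to 104 and 41.2 to 88.9 for 3 natural killer cell markers, all under the dimness floor, and 251 to 368 and 342 to 528 for 7 markers of mast cells and basophils. None of these lists had a member that passed without a block, and Cd79a, Ebf1 and Cr2 of B cells, Cd14, Itgam, S100a8 and S100a9 of myeloid cells, and Cpa3, Mcpt8, Fcer1a and Ms4a2 of mast cells and basophils had means under the dimness floor in both genotypes. These were 3 of 8, 4 of 10 and 4 of 7 markers, and the others of these lists were not under it in both genotypes. Those means are linear. By the mean log2 value used for the filter, Pax5 and Fcer2a of B cells were also too dim, which left 3 B cell markers tested. Cd79b had 110 ± 8.79 for wild type and 91.5 ± 15.6 for CTLA-4 KO, and Csf1r had 130 ± 9.89 and 123 ± 36.6. Cd68 of myeloid cells was higher without overlap, at 83.1 ± 22.5 and 132 ± 6.20. Zbtb46 (90.0 ± 17.7 and 56.6 ± 6.10) and Itgax (70.7 ± 4.25 and 53.6 ± 7.44) of dendritic cells were lower without overlap. Kit, a mast cell and progenitor receptor, had 66.1 ± 50.1 and 187 ± 40.6 (adjusted p = 0.0902, and 0.0188 with the block), and its part in the cytokine values was not tested.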

How the data were processed

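The authors deposited a linear intensity for each of 45101 probe sets on 6 arrays; per the labels' protocols, 2 µg of RNA went into each labelling. Partek and MAS5 are named, without versions, in the submitters' processing notes. The trimmed mean of each array was 500.003 (2% off each end), as MAS5 scaling gives. The number of arrays limits the precision, and faint MAS5 values are noisy.

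From these values, log2(intensity + 16) was computed, 64 control probe sets were left out, and probe sets were tested where their mean log2 value reached the 40th percentile, an intensity of 35.4. limma 3.58.1 in R 4.3.3 was fitted with the prior variance following intensity (residual degrees of freedom 4, or 2 with the block), with both directions counted and Benjamini-Hochberg adjustment over all 27022 probe sets at 0.05. Blocked fits that lack a pair have fewer degrees of freedom, so their p-values rest more on that prior variance. Intervals are at 95% and are not adjusted. Differences on this scale understate changes of dim genes. Intensities are means ± SD of 3 arrays. The titles call the arrays biological replicates but do not state separate animals. The p-values thus reflect array-to-array spread, which need not be the spread between animals.

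Groups and replicate numbers come from the sample titles. The labels do not say that arrays sharing a number are pairs, so the main fit has no block. Arrays sharing a number deviated together from their genotype's mean (correlations 0.371, 0.24 and 0.254, all above 0.1). Between arrays of different number the correlations ran from -0.219 to -0.014. Deviations within a genotype sum to 0, so these correlations are not independent of each other. On that ground arrays sharing a number were treated as pairs in the blocked fits, a pairing taken from the same data that were then tested. Genes were named from the array's annotation, which gave 1 gene for 34958 probe sets, several for 932 and none for 9211, with symbols updated by gene ID for 34754. RefSeq's GRCm38.p6 tables gave gene order, chromosomes and promoters, since the array files name no build. The dimness filter was first run on the mean linear intensity and was changed to the mean log2 value after those results were seen; both are given with the alternatives. The statistics were tested on simulated data with 200 changed probe sets. Without a block, 51% of 2-fold and 90% of 4-fold changes were called, and 6% of the calls were false. With the block, 24% and 84% were called, and 3.57% of the calls were false. The simulated arrays shared no pair effect, so this does not test the block on paired arrays. The members, lists and alternatives were chosen with earlier results of these data known. The text names every member, Ctla4, genes of the lists of related genes that passed with or without the block, up to 4 others of smallest p in each such list, the 3 genes nearest to Il21, and cell type markers only as sums, counts and those at background. Il21r, Il2ra, Cish, Socs1 and the markers Kit, Cd3d, Cd3e, Cd3g, Cd4, Cd28, Cd79b, Csf1r, Cd68, Zbtb46 and Itgax fall outside this rule and were named after their values were seen. Alternatives were the dimness filter, the pseudocount, scaling, the trend, array weights, the block, probe set choice, the Actb ratio as a term and leaving out arrays.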

Additional observations from a re-analysis of the deposited data

How the results depend on the processing

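The cytokine probe sets that passed numbered 1 in the fit described, 3 with the replicate block, and 0 without the intensity trend or with the Actb ratio as a term. Leaving out 1 array at a time gave 0 to 1. The replicate block with both arrays of 1 number left out, added after seeing the data, gave 3 each time, but different ones: the brighter Il21 probe set with the dimmer one and Tnf without number 1, with Il2 and Ltb without number 2, and with the dimmer one and Il4 without number 3. Over the whole array these fits called 2216 of 27419 probe sets without number 1, 1744 of 27130 without number 2 and 1810 of 26730 without number 3. The remaining alternatives without a block gave 1. Filtering on the linear mean, the setting run first, gave 1 of 345 calls, and 3 of 2337 with the replicate block. The replicate block and no filter on dim probe sets, also added after seeing the data, gave 1 of 774. Over the whole array, 339 probe sets passed, against 111 with no filter on dim probe sets, 20 without the trend, 521 with array weights, 2341 with the replicate block, 22 with the Actb ratio as a term, and 61 to 217 when 1 array was left out. Higher calls made up 62.5% of the 339, and 73.5% of 460 under median centring. The block left the call of Ctla4 and of the brighter Il21 probe set in place. The brighter Il21 probe set had a log2 difference between 0.71 and 0.96 under all 23 alternatives, and Il2 between -0.76 and -0.45 under its 22. Differences that turned sign belonged to Ifng, at -0.077 without wild type replicate 3 and -0.034 without CTLA-4 KO replicate 1 (-0.077 to 0.16 with 1 array left out), and to Lta (-0.12 to 0.14). The Lta values were 0.042 under median centring, 0.021 under quantile normalization, 0.14 without wild type replicate 3, 0.0024 without CTLA-4 KO replicate 1, 0.0025 without CTLA-4 KO replicate 2, and 0.10 with the replicate block without number 3. The cause of these shifts was not tested. Il10, Il3 and the dimmer Lif probe set are limited by faint signal.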
